A study of Mus musculus with 10 samples.

Results

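The circadian clock genes *Arntl*, *Clock*, *Per1*, *Per2*, *Per3*, *Cry1*, *Cry2*, *Nr1d1*, *Nr1d2* and *Dbp*, were followed in retinal cells of mice after optic nerve crush (ONC), with and without Cre delivered to a floxed *Arid1a* gene. These 10 genes were taken by symbol from the 53974 genes of the RNA-seq table, and 9 of the 16600 regions of the ATAC-seq comparison lay within 1000 bp of an end of one of them. All 10 passed the filter on low values, which kept 17555 genes whose TPM reached 1 in 3 or more of the 6 libraries. TPM is transcript abundance per transcript length, scaled to the same sum in every library.

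ARID1A is a subunit of the SWI/SNF complex, which moves nucleosomes, and the study asked how its loss changes transcripts and open chromatin in retinal ganglion cells (RGCs). All mice were Arid1a fl/fl on C57BL/6, aged 8 to 10 weeks by the labels, and all optic nerves were crushed. Animals labelled WT received AAV2 carrying GFP and those labelled cKO (genotype Arid1a del/del) received AAV2 carrying Cre, in both cases from the CMV promoter, which is active in many cell types, 2 weeks before ONC. The paper lists a lower titer for the Cre virus than for the GFP virus, so label and titer cannot be told apart. Retinas were taken 3 days after ONC, 4 to 5 retinas were pooled per sample, and living cells stained by an antibody to Thy1.2 were sorted. For RNA-seq there were 3 libraries of each label, and for ATAC-seq, which reads open chromatin by where a transposase cuts, 2 of each. Which animals entered which pool, and the time of day at which retinas were taken, are not given in the sources used here. The p-values therefore measure the spread between these libraries alone.

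The clock is a loop of transcription and translation that runs in most cells, the retina among them, where it times light sensitivity, dopamine and melatonin release and photoreceptor renewal. BMAL1 (encoded by *Arntl*) and CLOCK bind E-box sequences and switch on the *Per* and *Cry* genes, whose proteins gather and block BMAL1 and CLOCK. REV-ERBα and REV-ERBβ (*Nr1d1*, *Nr1d2*) are also induced through E-boxes and repress *Arntl* through ROR elements (RORE), while DBP carries the rhythm to output genes through D-boxes. In a rhythmic tissue *Arntl* RNA is high when *Dbp* and *Nr1d1* RNA are low, so the level of such a gene depends on when the tissue was taken.

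The motifs through which these genes regulate each other can be read in their start sequences. A window of 250 bases before to 50 after each listed transcription start was taken from RefSeq on GRCm38.p6, which held 32851 windows of 27025 genes and an entry for 9 of the 10 genes (*Per2* had none). Exact matches were searched on both strands, and positions give the first matched base as printed, counted from the start site. The E-box CACGTG, in 7.15% of all windows, was found at -166 in *Per1* and at -60 in *Cry1*. The E′-box CACGTT, in 4.68% of windows, was found at -79 in *Cry1*, at -28 in *Nr1d1* and at -166 in *Cry2*. The D-box TTATGTAA, in 0.938% of windows, was found at -205 and at -158 in *Per3*. The RORE TAGGTCA, in 2.61% of windows, was found at 31 bases into the second listed *Arntl* start. The CRE TGACGTCA, in 1.79% of windows, was found in no window of the 9 genes. None of the matches overlapped another. The 5 windows below are shown because between them they hold each of the 4 motifs that was found. Capitals mark the match, read 5′ to 3′ on the gene's strand, so that an E′-box on the other strand appears as AACGTG.
Per1 (E-box), chr11:69098699-69098998, plus strand: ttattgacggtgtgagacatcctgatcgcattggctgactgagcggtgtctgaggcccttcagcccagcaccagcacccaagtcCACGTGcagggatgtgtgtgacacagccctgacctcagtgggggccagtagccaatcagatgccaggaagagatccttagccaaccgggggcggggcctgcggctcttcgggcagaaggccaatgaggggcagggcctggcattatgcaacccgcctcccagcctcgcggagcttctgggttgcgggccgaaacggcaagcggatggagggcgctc
Cry1 (E′-box, then E-box), chr10:85185005-85185304, minus strand: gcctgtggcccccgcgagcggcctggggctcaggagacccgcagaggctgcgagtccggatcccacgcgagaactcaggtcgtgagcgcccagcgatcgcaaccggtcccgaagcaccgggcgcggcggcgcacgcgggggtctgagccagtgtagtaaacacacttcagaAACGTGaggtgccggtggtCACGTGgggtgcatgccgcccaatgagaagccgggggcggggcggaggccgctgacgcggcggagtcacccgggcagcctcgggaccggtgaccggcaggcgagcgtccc
Nr1d1 (E′-box), chr11:98775328-98775627, minus strand: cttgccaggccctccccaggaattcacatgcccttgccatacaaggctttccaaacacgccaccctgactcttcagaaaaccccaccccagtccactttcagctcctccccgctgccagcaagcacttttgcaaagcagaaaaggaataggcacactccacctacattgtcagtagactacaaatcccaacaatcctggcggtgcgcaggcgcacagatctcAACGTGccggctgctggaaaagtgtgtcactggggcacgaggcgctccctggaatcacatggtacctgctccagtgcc
Per3 (both D-boxes), chr4:151044616-151044915, minus strand: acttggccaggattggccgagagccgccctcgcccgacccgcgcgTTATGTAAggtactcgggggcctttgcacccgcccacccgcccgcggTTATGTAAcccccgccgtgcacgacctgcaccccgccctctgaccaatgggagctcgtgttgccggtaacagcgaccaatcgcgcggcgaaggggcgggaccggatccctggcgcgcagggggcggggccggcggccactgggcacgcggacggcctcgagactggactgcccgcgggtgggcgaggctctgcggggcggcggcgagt
Arntl (RORE), chr7:113207261-113207560, plus strand: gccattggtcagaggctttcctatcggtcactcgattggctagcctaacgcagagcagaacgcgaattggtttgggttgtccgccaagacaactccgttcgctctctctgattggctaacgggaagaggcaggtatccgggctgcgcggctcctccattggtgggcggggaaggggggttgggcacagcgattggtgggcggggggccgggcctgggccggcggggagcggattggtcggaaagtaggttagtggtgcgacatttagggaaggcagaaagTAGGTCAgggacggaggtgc
Each of these windows overlapped a region of the ATAC-seq comparison. A match describes letters alone and was not tested as a binding site.

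Facts of the libraries touched every comparison below. *Arid1a*, the targeted gene, had a TPM of 18.8, 11.7 and 14.1 under the WT label and of 18.8, 27.9 and 25.0 under the cKO label (log2 fold change 0.66, SE 0.28, adjusted p = 0.274 from limma), so its RNA was not lower under the cKO label and WT and cKO stand for labels throughout. TPM is summed over the whole gene and does not read the floxed part alone. By immunostaining of retinal sections, the paper reported less ARID1A protein in RGCs after AAV2 carrying Cre. That is protein, and was not measured in these libraries. Of the 14 RGC markers, 11 passed the filter. *Pou4f2*, *Pou4f3* and *Slc17a6* did not, and *Pou4f2* was listed at 0 in 5 of 6 libraries. *Thy1*, the sorting marker, was between 51.9 TPM (WT replicate 2) and 129 TPM (cKO replicate 3). It counts in both the RGC and the T cell sums, as *Isl1* does in the RGC and bipolar sums. By immunostaining, the paper reported that nearly all sorted cells were positive for Tuj1 (βIII tubulin). Rod markers summed to 12447 to 17320 TPM in the WT and 25518 to 48207 TPM in the cKO libraries. All 9 rod genes were higher in every cKO library than in every WT library, against 18.7% of all genes tested. Cone markers summed to 2005 to 2506 and 3528 to 6148 TPM, and amacrine markers to 222 to 429 and 569 to 1216 TPM. The 10 T cell markers summed to 695 to 1924 TPM in WT and 256 to 503 TPM in cKO, and the 9 myeloid markers to 2123 to 3590 and 888 to 1242 TPM. The sums overlapped between the labels for bipolar markers (1019 to 1403 against 1274 to 2080 TPM) and RGC markers (189 to 274 against 258 to 292 TPM), as they did for Mueller glia and astrocyte markers (13863 to 26127 against 10305 to 24711 TPM), endothelial and pericyte markers (383 to 1041 against 273 to 771 TPM) and erythrocyte markers (94.3 to 1353 against 130 to 234 TPM). B cell markers summed to 29.6 to 106 TPM in WT and 8.86 to 18.3 TPM in cKO, and no listed marker was at 0 in every library. Clock genes are expressed in most cell types, and the part of this shift in the values below was not tested. In such bulk samples, a change in the number of cells of a type and a change of RNA per cell cannot be told apart.

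None of the 10 clock genes differed between the labels at an adjusted p under 0.05. *Per3* came nearest, at 37.4 ± 2.85 TPM in WT and 67.9 ± 7.51 TPM in cKO (SD, n = 3), and *Clock* and *Nr1d2* followed with smaller differences. *Dbp* differed more between libraries of one label than between labels. In limma on log2(TPM + 1), the scale of every log2 fold change given here, 0 of 10 passed the Benjamini-Hochberg threshold, against 0.00570% of all genes tested, which is 1 gene. Before adjustment, 2 of 10 had a p under 0.05, both higher in cKO, against 11.9% of all genes higher in cKO. In 2 of 10, *Clock* and *Per3*, every cKO library lay above every WT library, which was so for 18.7% of all genes, and in 0 of 10 every cKO library lay below, against 7.18% of all genes. The log2 fold change was above 0 in 9 of 10, as it was in 10733 of the 17555 genes tested. Its median was 0.49 over the 10 genes and 0.16 over all genes tested. With libraries scaled by the median of ratios these medians were 0.32 and 0.01, and 7 of 10 were above 0. Relative to the median of all genes, 7 of 10 were higher on either scaling.

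**Figure D1:**
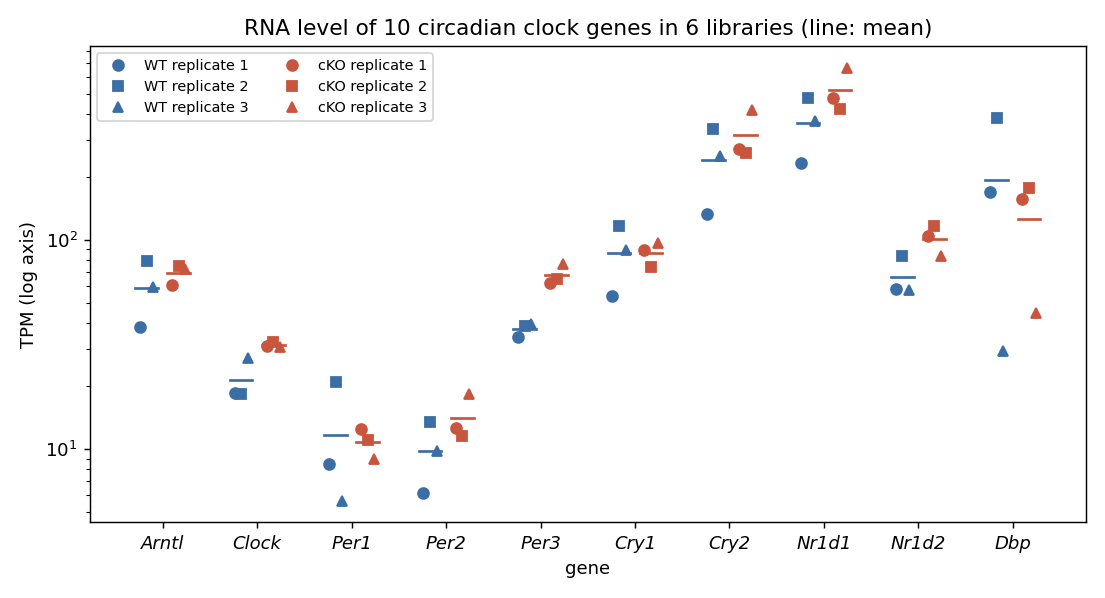
TPM (log axis) of the 10 clock genes in each RNA-seq library. Blue marks are libraries labelled WT, red marks libraries labelled cKO, marker shapes are replicate numbers and lines are means of 3 libraries. The groups are apart for *Clock* and *Per3* alone, and *Dbp*, like *Per1* and *Nr1d2*, is lowest in replicate 3 of both labels.

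*Arntl* and *Clock* encode the activators. *Arntl* was at 38.4, 78.9 and 59.2 TPM in WT replicates 1 to 3 and at 60.6, 74.7 and 72.2 TPM in cKO replicates 1 to 3 (log2 fold change 0.28, SE 0.30, adjusted p = 0.641 from limma). The cKO values lay inside the WT range, which spanned 2.06-fold. *Clock*, whose protein pairs with BMAL1, was at 18.6, 18.4 and 27.2 TPM in WT and at 31.1, 32.5 and 30.8 TPM in cKO. Its cKO libraries were within 1.05-fold of each other and all above the highest WT library, and its log2 fold change was 0.56 (SE 0.24, limma p = 0.0533, adjusted p = 0.279, exact permutation p = 0.1). On libraries scaled by the median of ratios the log2 fold change of *Clock* was 0.39, and its groups stayed apart.

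*Per3*, one of the PERIOD repressors and the one gene with a D-box match among the 9 with a window, had the largest difference of the 10. It was at 34.2, 38.6 and 39.5 TPM in WT and at 62.0, 65.3 and 76.4 TPM in cKO. The lowest cKO library stood well above the highest WT library, and the spread within labels was small: the residual SD, 0.13 on the log2 scale, was larger than in only 3.32% of all genes. The log2 fold change was 0.84 (SE 0.20, 95% interval 0.36 to 1.32, limma p = 0.00410, adjusted p = 0.130, and exact permutation p = 0.1, the smallest that 3 against 3 libraries can give). Over 12 alternative fits its limma p stayed under 0.05 and the log2 fold change ran from 0.67 to 0.90, with a lowest adjusted p of 0.109. Leaving out WT replicate 2 gave 0.86, and leaving out cKO replicate 3, its highest library, gave 0.75.

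For 3 other genes the data gave almost the same course over the 6 libraries as *Per3*. *Zfp60* (13.0 TPM in WT and 25.3 TPM in cKO on average), *Gnb5* (168 and 308 TPM), which encodes a G protein β subunit, and *Gm46404* (6.44 and 12.9 TPM) lay nearest to it, at a root mean square distance of 0.053, 0.062 and 0.065 on the centred log2 scale. These were the nearest of all genes tested by that measure, over 6 libraries, and 18.7% of all genes share with *Per3* that every cKO library lies above every WT library.

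The other two PERIOD genes were the lowest of the 10 in level. *Per1*, a PERIOD gene that also responds quickly to light and to cAMP signals, was at 8.47, 20.9 and 5.67 TPM in WT and at 12.4, 11.0 and 8.94 TPM in cKO. WT replicate 2 was far above the other WT libraries and the cKO values fell between them (log2 fold change 0.07, SE 0.46, adjusted p = 0.951 from limma). *Per2* was at 6.19, 13.4 and 9.80 TPM in WT and at 12.6, 11.5 and 18.3 TPM in cKO, with 2 of 3 cKO libraries inside the WT range (log2 fold change 0.52, SE 0.35, adjusted p = 0.462 from limma). The direction of *Per1* was not stable: it turned to -0.08 with scaled libraries and to -0.30 without WT replicate 3.

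The cryptochromes, which bind and silence the BMAL1 and CLOCK pair directly, were present at higher levels. *Cry1* was at 53.9, 117 and 89.9 TPM in WT and at 89.6, 74.1 and 96.3 TPM in cKO, and its means, 86.9 and 86.7 TPM, were almost equal (log2 fold change 0.06, SE 0.31, 95% interval -0.68 to 0.80, adjusted p = 0.940 from limma). Its sign turned under scaling (-0.11) and without WT replicate 1 (-0.25). *Cry2* was at 133, 340 and 253 TPM in WT and at 271, 261 and 417 TPM in cKO. Only the highest cKO library lay above the WT range (log2 fold change 0.45, SE 0.38, adjusted p = 0.564 from limma).

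*Nr1d1* and *Nr1d2* encode the heme receptors REV-ERBα and REV-ERBβ, which close the second loop. *Nr1d1* had the highest mean level of the 10, with 233, 478 and 371 TPM in WT and 474, 424 and 666 TPM in cKO, at percentiles 96.8 to 99.1 of the genes tested. WT replicate 2 lay above 2 of the 3 cKO libraries (log2 fold change 0.56, SE 0.32, adjusted p = 0.393 from limma). *Nr1d2* was at 58.1, 83.8 and 57.6 TPM in WT and at 104, 117 and 83.7 TPM in cKO. The labels overlapped by a hair, at WT replicate 2 and cKO replicate 3, and the log2 fold change was 0.61 (SE 0.25, limma p = 0.0413, adjusted p = 0.251, exact permutation p = 0.200). That unadjusted p was 0.0688 with scaled libraries, 0.0589 with no trend, and above 0.05 when any of WT replicates 1 and 3 and cKO replicates 1 and 2 was left out (0.0932, 0.130, 0.110 and 0.144).

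How far apart the labels stood depended on single libraries, most of all on 2 of the WT libraries. WT replicate 2 held the highest WT value of 8 of the 10 genes, all but *Clock* and *Per3*, and WT replicate 1 the lowest WT value of 6. Without WT replicate 2, every cKO library lay above every WT library in 8 of 10 genes in place of 2, all but *Cry1* and *Dbp*, while the same held for 28.3% of the genes tested in that fit, and the median log2 fold change was 0.67, against 0.25 over those genes. The unadjusted p of *Nr1d1* was then 0.0478 and that of *Nr1d2* 0.0148, and 0 of 10 passed the adjusted threshold. Without WT replicate 1 the median log2 fold change over the 10 genes was 0.16, against 0.07 over all genes of that fit. Without cKO replicate 3 that median was 0.35, against 0.16 over all genes. In that fit every cKO library lay above every WT library in 3 of 10 genes, against 29.4% of all genes. The mean correlation of WT replicate 2 with the other 5 libraries was 0.872, where the others ranged from 0.884 to 0.906, and the median of ratios factors ran from 0.838 in WT replicate 1 to 1.089 in cKO replicate 2. No source used here marks any of these libraries as faulty.

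**Figure D2:**
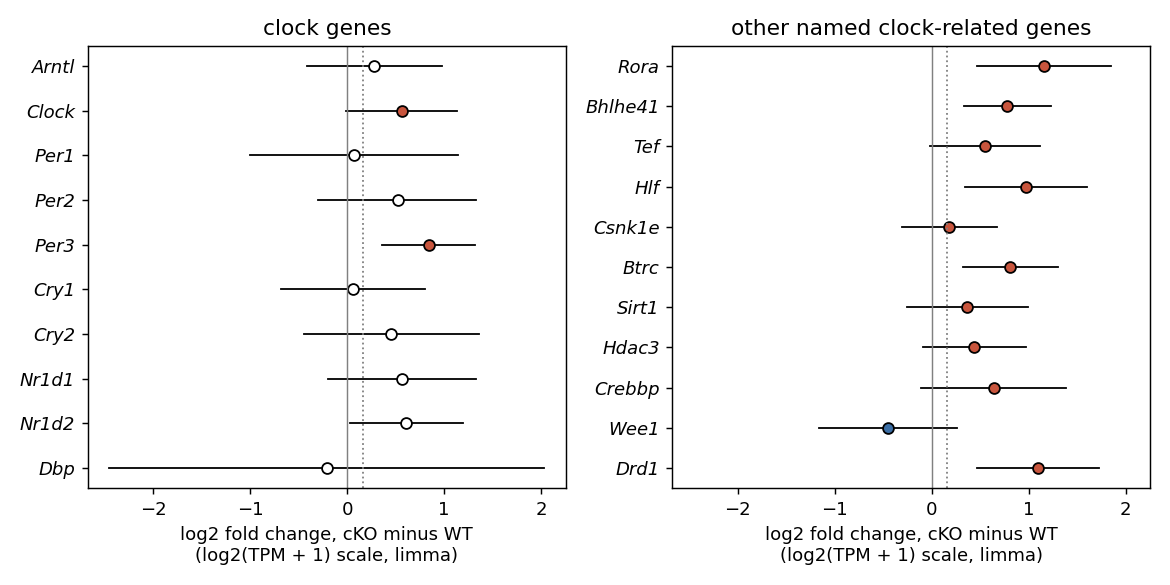
Log2 fold change (cKO minus WT, log2(TPM + 1) scale) with its 95% interval from limma, for the 10 clock genes on the left and 11 further clock-related genes on the right. Red marks have every cKO library above every WT library, blue the opposite, and the dotted line is the median of all genes, 0.16. The interval of *Dbp* is the widest of the 21, from -2.45 to 2.03.

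*Dbp*, which encodes a PAR bZIP factor that binds D-boxes, ranged more widely within each label than the other 9. It was at 169, 381 and 29.5 TPM in WT and at 156, 176 and 44.7 TPM in cKO, so that replicate 3 was lowest and replicate 2 highest under both labels. *Per1* and *Nr1d2* were also lowest in replicate 3 of both labels. The range of *Dbp* was 12.9-fold within WT and 3.94-fold within cKO, while none of the other 9 genes ranged more than 3.68-fold within a label. Its residual SD of 1.52 on the log2 scale was above that of 97.4% of all genes. The label difference was -0.21 (SE 0.95, 95% interval -2.45 to 2.03, adjusted p = 0.925 from limma), so that a change of over 4-fold either way lay inside the interval. With the replicate number as a block the SE of *Dbp* was 0.35 and its unadjusted limma p 0.567, and the 3 differences by number were -0.12, -1.11 and 0.58. The 3 libraries stood in the same order by replicate number under both labels for 4 of the 10 genes, *Arntl*, *Per3*, *Nr1d2* and *Dbp*, and for 23.1% of all genes tested.

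Ratios within a library do not depend on how libraries are scaled. The ratio of *Dbp* to *Arntl* was 4.40, 4.82 and 0.499 in WT replicates 1 to 3 and 2.57, 2.36 and 0.619 in cKO replicates 1 to 3, so *Arntl* exceeded *Dbp* in both libraries numbered 3 and in no other. The ratio of *Dbp* to *Nr1d1* was 0.724, 0.797 and 0.0795 in WT and 0.329, 0.415 and 0.0672 in cKO. The ratio of *Nr1d1* to *Arntl* was far steadier, at 6.08, 6.05 and 6.27 in WT and at 7.82, 5.68 and 9.22 in cKO. Thus *Dbp* was low in replicate 3 where *Nr1d1*, another gene induced through E-boxes, was not. *Per1* to *Arntl* was also lowest in replicate 3 of each label, at 0.0957 in WT and 0.124 in cKO, against 0.148 to 0.264 in the other 4 libraries. The ratio of *Per3* to *Arntl* was 0.890, 0.489 and 0.668 in WT and 1.02, 0.875 and 1.06 in cKO, and overlapped between the labels. Whether time of day moved with the replicate number was not tested, since no source used here gives it.

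**Figure D3:**
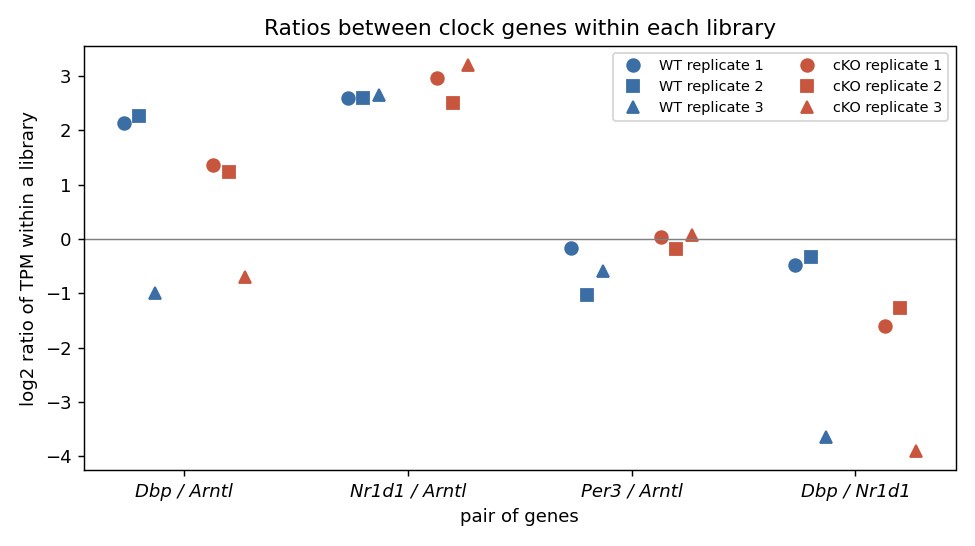
Log2 of the TPM ratio between pairs of clock genes within each RNA-seq library, by label (color) and replicate number (shape). *Dbp* to *Arntl* is below 0 in both libraries numbered 3 and between 1.24 and 2.27 in the other 4, and *Nr1d1* to *Arntl* stays between 2.51 and 3.20.

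In the ATAC-seq comparison, all 9 regions at the ends of these genes held less signal under the cKO label. The table gives, for each region and label, the log2 of the mean normalized reads of 2 libraries, so a difference has no replicate check here and no test was made. Of the 10 genes 9 had 1 such region each, at the end where the gene model starts for the 8 whose strand was known and at the upper end of *Per2*. For *Per1* this end of the model lies away from the starts listed by RefSeq, the nearest of which is 3129 bp from the region. All 9 were lower in cKO by at least 1 log2 unit, as were 89.0% of the 8002 regions at any gene end. Each of the 9 regions overlapped a peak of both WT libraries and of no cKO library, so it was listed through WT peaks. The direction of the difference is therefore not independent of how these regions came to be listed. The part of this in the size of the differences was not tested. The median difference was -3.42 over the 9 regions, -2.50 over all gene ends and -1.57 over all 16600 regions. Read against these, the clock genes shared in a shift that most gene ends showed. Across the 8002 regions the WT level and the difference correlated at -0.75 (Pearson, across regions, with the WT value entering both), and the WT levels of the 9 lay at percentiles 74.3 to 99.9 of gene ends.

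The region at *Nr1d2* (chr14:18238238-18239547) had the highest WT level of the 9 and the largest difference. It was at 8.25 in WT, above 99.9% of gene-end regions, and at 3.44 in cKO, on the log2 scale of reads, which is 304 against 10.9 mean normalized reads or 28.1-fold. Only 1.56% of gene-end regions were lower by more. At *Per1* (chr11:69094684-69095820) the values were 6.98 and 2.61, a difference of -4.37, and at *Per2* (chr1:91459120-91459896) 6.59 and 2.99, a difference of -3.60. The region at *Per3* (chr4:151044372-151045282), which holds both D-box matches, was at 5.74 in WT and 2.08 in cKO, a difference of -3.66, and 13.6% of gene-end regions were lower by more. *Nr1d1* (chr11:98775178-98775851), with its E′-box match, had the lowest WT level of the 9, 5.66 against 2.24. *Dbp* (chr7:45704063-45705965) was at 7.13 and 3.77, and *Cry2* (chr2:92433693-92435175) at 6.86 and 3.58. The smallest differences were at *Clock* (chr5:76303877-76305350), with -3.21, and at *Cry1* (chr10:85184421-85185526), with -3.08, where 28.8% of gene-end regions were still lower by more. At *Clock*, *Per3*, *Nr1d1* and *Dbp* the window also held an end of *Gm7467*, *Gm38529*, *Gm31862* and *Car11* respectively, so these regions belong to a pair of genes each.

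*Arntl* had no region at either of its listed gene ends. Its gene model begins 28994 bp before the first start listed by RefSeq, at position 113207465 of chromosome 7, and a region lay on that inner start (chr7:113206998-113208233). It was at 7.11 in WT and 3.35 in cKO, a difference of -3.76, inside the range of the 9 regions above. *Per1* likewise had a region nearer to a listed start, 24 bp from it, at chr11:69098415-69098925, whose bases overlap the E-box window shown above. It was at 5.70 in WT and 2.04 in cKO, and one more region inside the gene was at 5.03 and 0.27. Further regions lay inside other genes. *Nr1d1* had a second at 6.04 and 1.82, and *Cry2* a second at 6.31 and 3.95. Away from the starts the picture was mixed: a region inside *Clock* was at 3.51 and 3.31, and a region inside *Per2* (chr1:91428284-91429003) was higher under the cKO label, at 2.76 in WT and 3.74 in cKO.

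**Figure D4:**
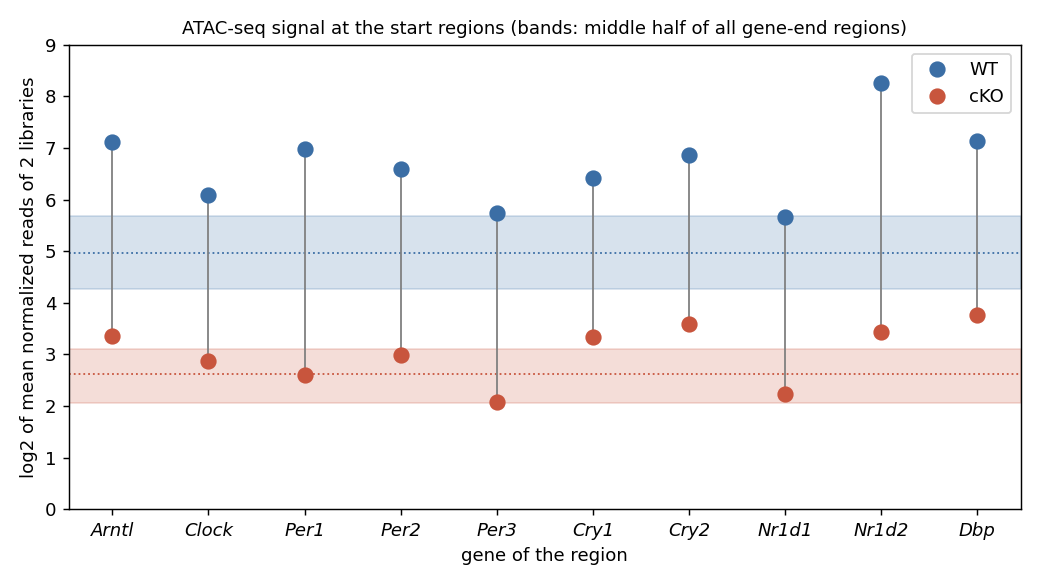
ATAC-seq signal (log2 of the mean normalized reads of 2 libraries) at the gene-end region of each clock gene, in WT (blue) and cKO (red), with no error since the table holds group values. Shaded bands run from the lower to the upper quartile of the 8002 gene-end regions, with medians of 4.97 in WT and 2.62 in cKO (dotted). The WT points lie above the band, which ends at 5.68, except *Nr1d1* at 5.66, and *Arntl* is shown at its inner start.

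The peak lists are the only values per ATAC-seq library. A peak reached into the 1000 bp around a gene end in both WT libraries at 9 of the 20 ends of the 10 genes, against 26.2% of the ends of all genes tested, and in both cKO libraries at 0 of 20, against 0.628% of those ends. The 9 were the ends named above, and no far end had a peak in both WT libraries. Single peaks in a cKO library were seen at the upper end of *Per3*, in replicate 2, and at the lower end of *Arntl*, in replicate 1, and the inner *Arntl* start also held a peak of cKO replicate 1. The region inside *Per2* held peaks in both cKO libraries and in WT replicate 1. The cKO libraries did not have fewer peaks in all, with 55902 and 68317 against 76522 and 42265 in WT. They covered 17290 and 22333 kb, against 29737 and 18108 kb in WT. Read depth and the share of reads in peaks were not given, and their part in these differences was not tested.

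**Figure D5:**
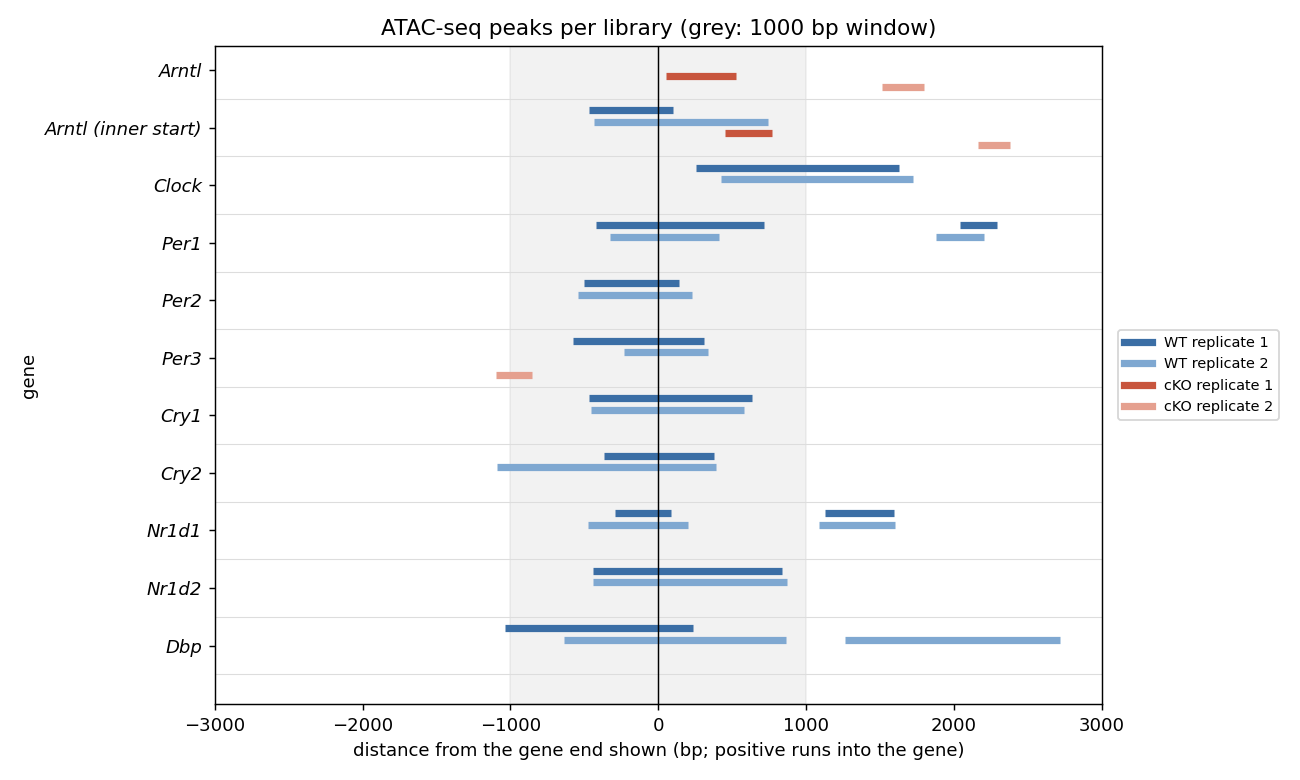
Peaks of each ATAC-seq library (colored bars) by distance in bp from the start end of each clock gene, the upper end for *Per2*, and the inner start of *Arntl*. The grey band is the 1000 bp window. All 9 genes with a region have a peak of both WT libraries inside it, and within it peaks of a cKO library appear at *Per3* and at both *Arntl* positions.

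Side by side, RNA and ATAC-seq values did not run in one direction at these genes. Each direction was also the common one elsewhere: 89.0% of gene-end regions were lower in cKO by at least 1 log2 unit. The RNA log2 fold change was above 0 in 10733 of the 17555 genes tested. *Nr1d2*, *Per3* and *Clock*, given first below, had the lowest limma p of the 10 in RNA. *Nr1d2* had 10.9 against 304 normalized reads at its start under the cKO label and 101 ± 16.8 against 66.5 ± 15.0 TPM (SD, n = 3). *Per3* had 4.23 against 53.4 normalized reads and 67.9 against 37.4 TPM, and *Clock* 7.31 against 67.6 normalized reads and 31.5 ± 0.877 against 21.4 ± 5.05 TPM (SD, n = 3). *Dbp* had 13.6 against 140 normalized reads and 126 ± 70.8 against 193 ± 177 TPM (SD, n = 3), the one gene of the 10 with a log2 fold change below 0 in RNA. The RNA and ATAC-seq libraries were separate samples, and the relation between them was not tested.

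Of 32 further clock genes, 0 passed the adjusted threshold in limma. Before adjustment 4 of 32 had a p under 0.05, all higher in cKO, a share near the 11.9% of all genes. In 9 of 32 every cKO library was above every WT library, against 18.7% of all genes, and in 1 of 32 the opposite held, against 7.18%. The median log2 fold change of the 32 was 0.33, against 0.16 over all genes tested. *Rora*, a receptor that activates *Arntl* through the RORE, was at 50.3, 27.8 and 37.7 TPM in WT and at 87.2, 105 and 67.1 TPM in cKO (log2 fold change 1.16, SE 0.29, adjusted p = 0.138 from limma). *Bhlhe41* (DEC2), which competes for E-boxes, was at 51.0, 54.0 and 62.0 TPM in WT and at 95.1, 94.8 and 98.2 TPM in cKO (log2 fold change 0.78, SE 0.19, adjusted p = 0.131 from limma). Both genes had wide gaps between the labels and, like *Per3*, missed the adjusted threshold.

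Both relatives of *Dbp* in the PAR bZIP family lacked its spread. *Hlf* was at 45.3, 42.5 and 41.0 TPM in WT and at 101, 102 and 59.2 TPM in cKO (log2 fold change 0.97, SE 0.27, adjusted p = 0.151 from limma), and *Tef* at 73.2, 122 and 91.1 TPM in WT and at 135, 126 and 152 TPM in cKO (log2 fold change 0.55, SE 0.24, adjusted p = 0.285 from limma). Neither was low in replicate 3 of WT in the way *Dbp* was, and *Hlf* was lowest in replicate 3 of each label. *Btrc*, a subunit that recognizes phosphorylated PER for degradation, was at 30.3, 38.6 and 31.8 TPM in WT and at 59.2, 63.7 and 54.9 TPM in cKO (log2 fold change 0.81, SE 0.21, adjusted p = 0.140 from limma). The labels were also apart, with smaller differences, for the kinase gene *Csnk1e* (0.18) and the coregulator genes *Crebbp* (0.64), *Hdac3* (0.44) and *Sirt1* (0.36), and these 4 overlapped once libraries were scaled. *Wee1*, a cell cycle kinase gene driven by E-boxes, was the one gene lower in every cKO library, at 15.8, 30.7 and 17.7 TPM in WT and at 14.9, 14.3 and 15.1 TPM in cKO (log2 fold change -0.45, SE 0.30, adjusted p = 0.466 from limma). At the ends of 24 of these 32 genes lay 25 ATAC-seq regions, all lower in cKO by at least 1 log2 unit, with a median difference of -2.96. Of all gene-end regions 89.0% were lower by as much, with a median of -2.50.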

How the data were processed

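RNA-seq and ATAC-seq of Thy1.2-sorted retinal cells were analysed from the tables the authors deposited, on mouse build GRCm38. For RNA-seq the authors trimmed reads, quantified them with Salmon 1.0.0 and summed transcripts to genes, and deposited TPM per library; no source used here states whether strand was used, so reads of overlapping genes, such as *Thra* with *Nr1d1*, *Sphk2* with *Dbp* and *Uts2* with *Per3*, may not be told apart. TPM keeps no depth, so no counting error can be given. For ATAC-seq the authors aligned with Bowtie2 2.3.5.1, called peaks with MACS2 2.2.5 (versions from the submitters' processing notes) and deposited log2 mean normalized reads per region and group from DiffBind. The authors' own fold changes, p-values and FDRs in the deposited comparison tables were not used, nor was their RNA-seq comparison table, which holds nothing else.

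Groups came from the sample labels. Genes whose TPM reached 1 in 3 or more libraries were compared on log2(TPM + 1) with limma 3.58.1 in R 4.3.3 (group as the only term, empirical Bayes with a trend, Benjamini-Hochberg over 17555 genes, threshold 0.05). The code was tested on simulated data. Exact permutation tests were two-sided, with a smallest p of 0.1. The study's count model could not be run on TPM. Regions and peaks were assigned to a gene within 1000 bp of an end; printed positions count from 1. Python 3.11.15 with pandas 2.3.3 handled the tables and matplotlib 3.10.9 drew the figures. Genes named beside the 10 clock genes and *Arid1a* were those of the lists of other clock genes and of retinal clock input and output genes with an unadjusted p under 0.05 or no overlap, up to the 12 with the lowest p, those below the filter, the 3 nearest in course to the clock gene with the largest change, and cell type markers. The members and all lists were chosen with earlier results of these data known.

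Same-numbered libraries deviated together from their group means (correlations across genes of 0.334, 0.101 and 0.425), although WT replicate 1 and cKO replicate 2 correlated at 0.193, above the same-numbered pair 2. Every same-numbered value was over 0.1, which by the rule applied here makes the replicate numbers a pairing taken from the data and the numbers in the labels, since no label says what a number marks. The fit with the number as a replicate block was an alternative. Other alternatives were scaling by the median of ratios, a pseudocount of 0.1, no filter, a filter on a mean TPM of 5, no trend, leaving out each library, windows of 3000 bp, a difference of 2 log2 units, subtraction of the median difference, the transcription start only, and 50% of a peak inside the window.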

Additional observations from a re-analysis of the deposited data

How the results depend on the processing

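Over 120 alternative fits of the 10 clock genes, none reached an adjusted p under 0.05, and the lowest was 0.109, for *Per3* with the replicate block. With the replicate block, 0 of 10 passed, and the paired fit changed no call. For the ATAC-seq values, no paired analysis was possible because group values alone are listed. The count of clock genes with an unadjusted p under 0.05, 2 as reported, was 1 after scaling by the median of ratios and 1 with no trend, was 3 with a pseudocount of 0.1, with no filter and with a mean TPM filter of 5, and ran from 1 to 3 when a library was left out. The count with no overlap ran from 2 to 8, with 8 only without WT replicate 2. Scaling turned *Per1* to -0.08 and *Cry1* to -0.11. Leaving out a library gave -0.30 to 0.56 for *Per1*, -0.25 to 0.30 for *Cry1* and -1.23 to 0.59 for *Dbp*, with turned signs at -0.05, -0.30 and -0.03 for *Per1* (without WT replicate 1, WT replicate 3 and cKO replicate 1), -0.25 and -0.02 for *Cry1* (WT replicate 1, cKO replicate 3) and 0.01, 0.59 and 0.41 for *Dbp* (WT replicate 1, WT replicate 2, cKO replicate 3). The cause was not tested. The other 7 kept their sign in all 12 alternatives. All 9 regions stayed lower under a difference of 2 log2 units and after subtracting the median difference, and 12 were found within 3000 bp. The 9 regions were listed through WT peaks alone, so these settings are no independent check of the direction. Ends with a peak in both cKO libraries numbered 1 within 3000 bp, at the lower end of *Arntl*. With TPM and group values alone, counting error cannot be given.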

Other observations

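Of 7 genes of light, dopamine or melatonin signals to and from the retinal clock, 2 passed the filter on low values. *Drd1*, the D1 dopamine receptor, had a TPM of 144, 164 and 105 under the WT label and of 362, 286 and 234 under the cKO label. Every cKO library was above every WT library, as for 18.7% of all genes tested. The log2 fold change was 1.09 (SE 0.26, limma p = 0.00422, adjusted p = 0.130, exact permutation p = 0.1). The adjusted p from limma was 0.0845 with the replicate block. *Drd4*, the D4 dopamine receptor, named here after its values were seen, was at 28.2, 50.5 and 18.2 TPM in WT and at 40.1, 62.9 and 27.9 TPM in cKO, and the labels overlapped (log2 fold change 0.47, adjusted p = 0.605 from limma). *Opn4*, the melanopsin gene of the RGCs that sense light themselves, stayed at or below 0.532 TPM in all 6 libraries, and *Adcyap1*, the PACAP gene those cells express, at or below 0.270 TPM. *Aanat*, an enzyme gene of melatonin synthesis, stayed at or below 0.259 TPM. *Mtnr1a* reached 0.102 TPM in 1 library and *Mtnr1b* was listed at 0 in all 6. With no depth in the table, no limit can be set on these values. Rod, cone and amacrine markers also had higher sums under the cKO label, and their part in the values of *Drd1* was not tested.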
